A study of Homo sapiens with 4 samples.

Results

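The genes described here are 32 direct targets of wild-type p53, chosen by name from what is known of the pathway, without the genes of the BCL2 family, the death receptors and the MDM genes. They were chosen with earlier results of these data known. Of these, 29 were measured by a transcript cluster (a group of probes along 1 gene) that the platform annotation gives to that gene alone, among 18417 genes measured in this way. BTG2 and FDXR were not analysed here, nor was TNFRSF10C, whose cluster also names a second gene. The 4 arrays are of the type Affymetrix Human Gene 1.0 ST, with probes along the whole length of transcripts. All hold RNA of MDA-MB-468 cells, an established basal-like breast cancer line whose own p53 carries the R273H substitution in its DNA-binding domain. A lentiviral shRNA against p53 (p53si-1) had been given to the cells of 2 arrays, and a lentiviral non-targeting shRNA (NS) to those of the other 2. The methods give 48 h after transduction and the account of the arrays in the results gives 72 h. The cells were grown in medium with serum and no agent that damages DNA is named for the arrays. A single p53 shRNA sequence and a single cell line were used for the arrays. In these data, loss of p53-R273H and another effect of the shRNA thus cannot be told apart. In assays of cell death the study also used another p53 shRNA and other lines with R273H. The legend of the study's heat map calls the experiments independent.

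Wild-type p53 is a transcription factor that stress stabilizes. It binds as a tetramer to pairs of a decamer motif and switches on genes that halt the cell cycle, repair DNA, adjust metabolism and prepare cell death. R273 touches DNA directly, and the R273H protein is known to have lost most binding to these motifs, so the genes below are commonly read as a measure of wild-type p53 activity. Many of them also have other activators, among them the relatives p63 and p73, and are expressed without p53.

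None of the 29 genes passed an adjusted p of 0.05 (limma, with Benjamini-Hochberg adjustment across the whole array) and none differed by over 1.5-fold between p53si-1 and NS arrays. TP53INP1, PLK2 and PERP had the largest differences, all higher with p53si-1, at 1.38-fold, 1.36-fold and 1.29-fold. GADD45A had the largest difference downwards, at 1.18-fold. CDKN1A, the gene of the cell cycle inhibitor p21 and the best known target of p53, was 1.12-fold higher with overlapping groups. Fold changes are given as p53si-1 minus NS on the log2 scale, and their median over the 29 genes was -0.02, beside -0.01 over all genes. Of the 29 genes, 13 lay above and 16 below 0, beside 8727 above and 9689 below among all 18417 genes. In bulk RNA such as this, fewer cells of a kind and less RNA per cell cannot be told apart.

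Over all genes, 0.0326% were higher and 0.0760% lower at an adjusted p under 0.05, so a count of 0 of 29 is near the background. By the 1.5-fold criterion, 0.271% of all genes were higher and 0.652% lower. At an unadjusted p under 0.05, 4 of the 29 genes were higher (13.8%, against 5.45% of all genes) and 2 were lower (6.9%, against 6.80% of all genes). In 6 of the 29 genes both p53si-1 arrays lay above both NS arrays (20.7%, against 19.9% of all genes), and in 7 they lay below (24.1%, against 22.6% of all genes). The counts of separated genes were thus near those of all genes. For 26 of the 29 genes the 95% interval of the difference lay wholly within 1.5-fold in both directions (89.7%, against 91.9% of all genes). The exceptions were TP53INP1 and PLK2, whose upper limits were 0.66 and 0.68 on the log2 scale, and TIGAR, whose lower limit was -0.62, where 1.5-fold is 0.58. No p-value from a permutation of 4 arrays can be below 0.333, two-sided.

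**Figure D1:**
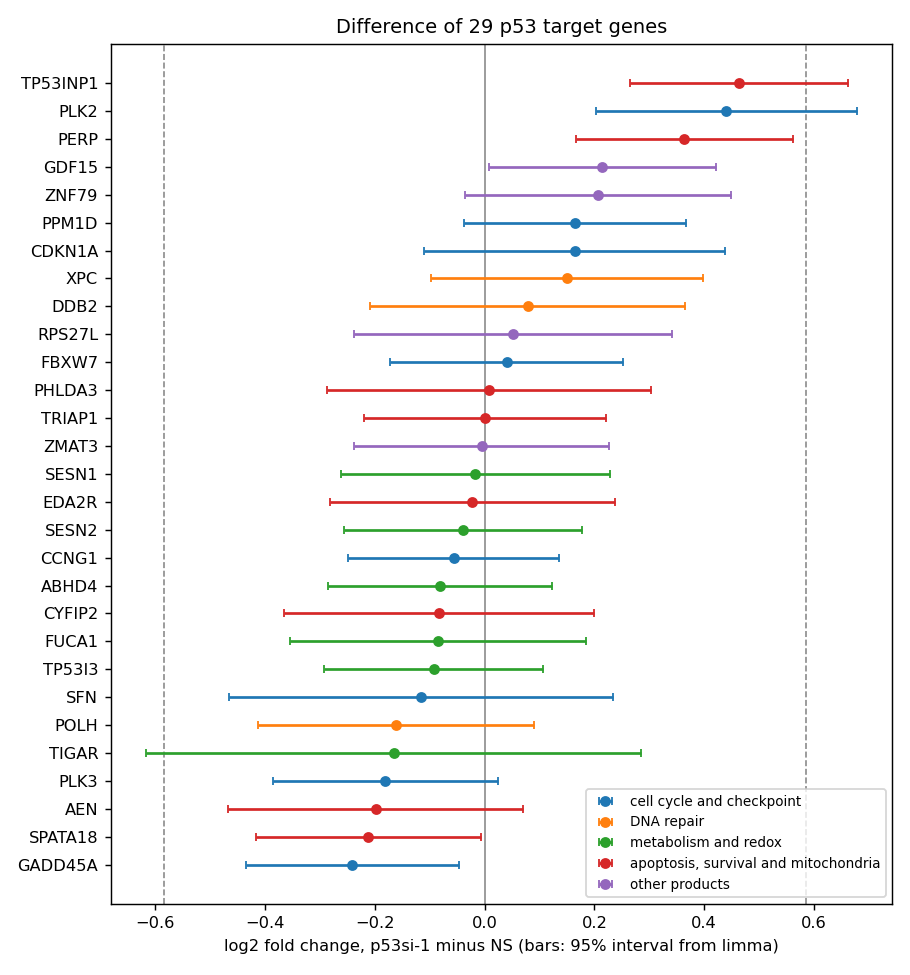
Differences between p53si-1 and NS arrays on the log2 scale for the 29 measured p53 target genes, ordered by value and coloured by role, with 95% intervals from limma. Dashed lines mark 1.5-fold (0.58 on the log2 scale). All points lie between -0.24 (GADD45A) and 0.46 (TP53INP1).

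The line was checked by its markers and was epithelial on all arrays. EPCAM, an epithelial adhesion protein, was at log2 signals of 12.11 and 12.25 on the p53si-1 arrays and 12.05 and 12.01 on the NS arrays. EGFR, which this line is known to carry in many copies, was at 10.09 and 9.88 on the p53si-1 arrays and 9.80 and 9.96 on the NS arrays. KRT5, a keratin of basal epithelium, differed the most of the 7 epithelial and basal-like markers measured, at 9.85 and 9.80 on the p53si-1 arrays and 10.36 and 10.12 on the NS arrays. The groups of KRT5 did not overlap, and its difference of -0.41 on the log2 scale did not pass (limma, adjusted p = 0.22). The adhesion protein CDH1 was also separated lower, at -0.14, EPCAM was separated higher, at 0.15, and the other 4 overlapped. The estrogen receptor ESR1 lay between 4.31 and 4.62 on the 4 arrays, and the progesterone receptor PGR had a mean signal of 3.96. The receptor ERBB2, checked beside them, was not dim, with a mean signal of 7.52. It was at 7.53 and 7.28 on the p53si-1 arrays and 7.75 and 7.51 on the NS arrays, with overlap. Markers of leukocytes (8 measured), fibroblasts (7) and endothelium (6) had median signals of 4.34, 4.44 and 4.58, and none passed an adjusted p of 0.05. CD14 and KDR were bright on all 4 arrays. COL1A1 (fibroblasts), CD68 (leukocytes) and CLDN5 (endothelium) had mean signals of 7.21, 6.54 and 6.26. Like CD14 and KDR, they lay above the genes of other tissues used below as a guide to dim signal, which reached 5.89. KDR was at 8.91 and 9.18 on the p53si-1 arrays and 8.36 and 8.73 on the NS arrays, without overlap (limma, adjusted p = 0.28). The mean signal of the leukocyte markers ran from 4.94 to 4.95 on the p53si-1 arrays and from 4.92 to 4.96 on the NS arrays. That of the fibroblast markers was 4.76 and 4.72 on the p53si-1 arrays and 4.82 and 4.84 on the NS arrays. Of these 7 markers, 6 had a lower and 1 a higher mean with p53si-1, where 9689 of all 18417 genes had a lower mean. In 4 of the 7 markers both p53si-1 arrays lay below both NS arrays (57.1%, against 22.6% of all genes), and in none above. The part of this difference in the results was not tested. The median signals of all clusters were 5.68 and 5.66 on the p53si-1 arrays and 5.66 and 5.69 on the NS arrays.

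The baseline signals of the p53 targets spanned a wide range. Their mean log2 signals over the 4 arrays ran from 4.05 for CYFIP2 to 11.23 for PLK2, with a median of 7.26, beside a median of 6.59 over all genes. Signals of different clusters depend on their probes as well as on the transcript, so these values place a gene on the array and do not rank transcripts by amount. Of the 29 genes, 11 lay below the median signal of all genes and 4 in the top 10 percent (PLK2, PERP, CCNG1 and SFN). Genes of other tissues served as a guide to dim signal. Of 16 such genes measured, among them albumin and the glucagon gene, mean signals ran from 2.85 to 5.89. CYFIP2, EDA2R and SPATA18 lay in that range, at 4.05, 4.32 and 5.12, and no expression can be read from them. GDF15, RPS27L, FBXW7 and ZNF79 lay just above it, at 6.01, 6.02, 6.16 and 6.16.

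**Figure D2:**
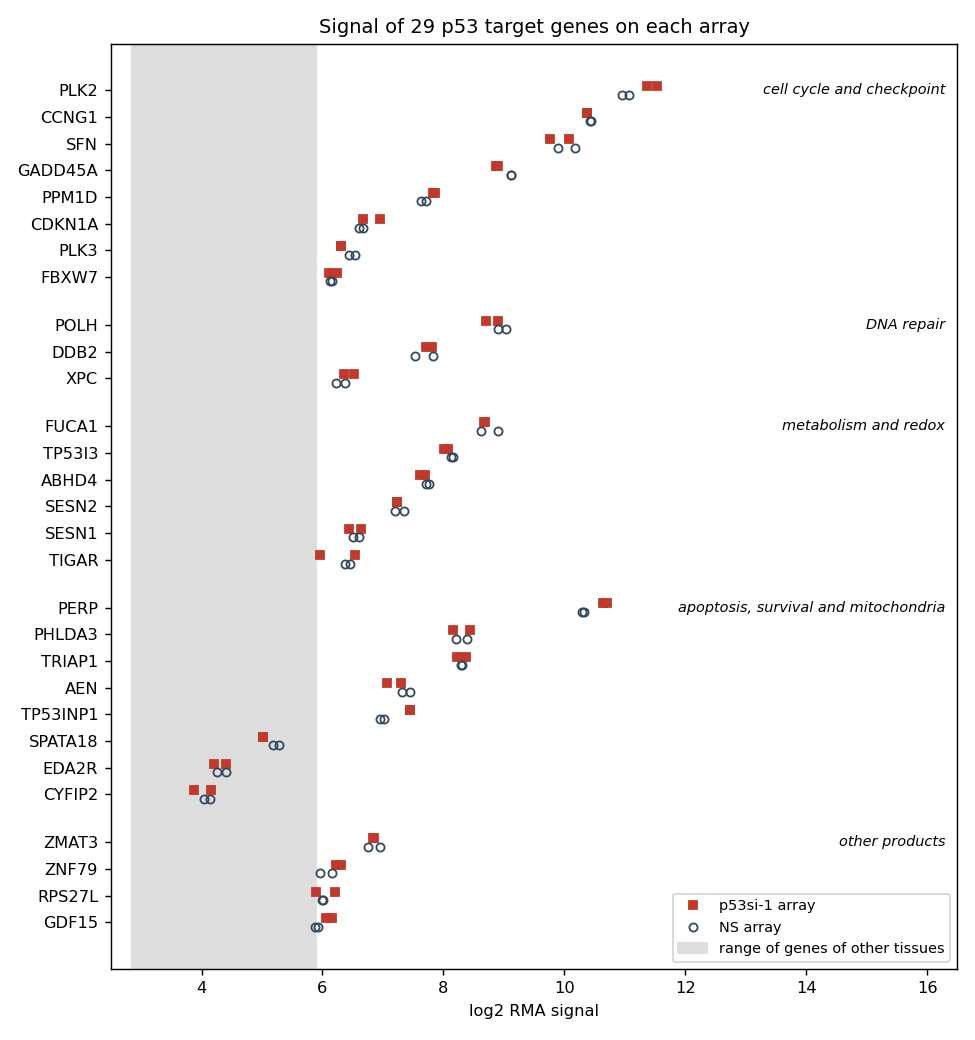
Log2 RMA signal of the 29 measured p53 target genes on each array, grouped by role and ordered by mean signal, with filled squares for p53si-1 and open circles for NS arrays. The grey band is the range of mean signals of 16 genes of other tissues, 2.85 to 5.89, which holds CYFIP2, EDA2R and SPATA18.

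The windows around the start sites of these genes were searched for the p53 decamer, because binding of p53 to such motifs is what makes a gene a direct target. RefSeq windows of 300 bases (250 before and 50 after each annotated start site, build GRCh38.p14) were at hand for 28 of the 32 genes, in 39 windows. The motif was the p53 half-site consensus, a palindrome of 10 bases, so a match is the same on both strands. A perfect half-site occurred in 7 of the 39 windows (17.9%), against 6.63% of all 35116 windows. Counted per gene, 7 of 28 genes had one (25%), against 8.06% of all 27305 genes in the table. A pair was 2 half-sites with a spacer of at most 13 bases and at most 2 mismatches, none at the core C or G. Such a pair occurred in 4 of the 39 windows (10.3%), against 2.93% of all windows. Pairs can share a half-site with single matches, and the decamers of a pair are not always perfect. A match is a description of letters, and a gene without one in this window can have its p53 site further away, as is known for CDKN1A. The stretches of the 6 measured genes with a match are shown 5′ to 3′ on the gene's strand, with the half-sites in capitals. Their log2 fold changes follow, and a relation between motif and fold change was not tested.

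PLK2: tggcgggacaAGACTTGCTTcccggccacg
DDB2: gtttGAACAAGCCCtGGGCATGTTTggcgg
SESN1: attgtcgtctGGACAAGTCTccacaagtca
ABHD4: GGGCTCGCCAggacctggcaAGGCTTGTTT
AEN: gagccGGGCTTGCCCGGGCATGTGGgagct
RPS27L: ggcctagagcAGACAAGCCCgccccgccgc

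The PLK2 stretch lies at chr5:58460199-58460228 on the minus strand, and its half-site begins at base -132 (counted from the start site, with bases before it negative). The DDB2 stretch lies at chr11:47214975-47215004 on the plus strand. It holds 2 half-sites without a mismatch, 1 base apart, which begin at base 6 from the downstream one of its 2 annotated start sites. The SESN1 stretch lies at chr6:109009018-109009047 on the minus strand, with a half-site at base -49 from 1 of 3 annotated start sites. The ABHD4 and AEN stretches lie at chr14:22598274-22598303 and chr15:88621301-88621330, both on the plus strand. Their pairs have 2 mismatches each and begin at bases -26 and -34. The RPS27L stretch lies at chr15:63157517-63157546 on the minus strand, with a half-site at base -59. With p53si-1, the log2 fold changes of these 6 genes were 0.44 for PLK2, 0.08 for DDB2, -0.02 for SESN1, -0.08 for ABHD4, -0.20 for AEN and 0.05 for RPS27L. None passed an adjusted p of 0.05, and the genes with a pair (DDB2, ABHD4 and AEN) lay on both sides of 0.

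Among the regulators of the cell cycle and its checkpoints, 8 of 9 genes were measured. None rose or fell at an adjusted p under 0.05, and 4 had a higher and 4 a lower mean with p53si-1. CDKN1A had log2 signals of 6.95 and 6.67 on the p53si-1 arrays, against 6.68 and 6.61 on the NS arrays. The lower p53si-1 array lay between the NS arrays, so the groups overlapped, and the higher value came from p53si-1 replicate 1. The log2 fold change was 0.16, with a 95% interval of -0.11 to 0.44 and an adjusted p of 0.63 from limma, and without p53si-1 replicate 1 it was 0.03.

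PLK2, a polo-like kinase that stress induces, stood out in this group. Its log2 signals were 11.37 and 11.53 on the p53si-1 arrays, against 10.95 and 11.07 on the NS arrays. The groups did not overlap, and the gap between them was larger than the gap within either. On the log2 scale PLK2 was higher by 0.44 (standard error 0.10, 95% interval 0.20 to 0.68), and limma gave an adjusted p of 0.17 and an unadjusted p of 0.0038. PLK3, a related kinase with a role in the stress response, lay on the other side. Its signals were 6.31 and 6.30 on the p53si-1 arrays, against 6.54 and 6.44 on the NS arrays, a difference of -0.18 on the log2 scale (limma, adjusted p = 0.46).

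GADD45A, a small stress protein that acts in the checkpoint before mitosis and in repair, was at 8.86 and 8.90 on the p53si-1 arrays, against 9.12 on both NS arrays. The groups were separate and each was tight. The log2 fold change of -0.24 had a 95% interval of -0.43 to -0.05 and did not pass (adjusted p = 0.32 from limma). PPM1D, the phosphatase that switches the p53 response off, was also separated, at 7.83 and 7.85 on the p53si-1 arrays against 7.63 and 7.72 on the NS arrays. Its log2 fold change was 0.16 (adjusted p = 0.50 from limma). CCNG1, cyclin G1, was separated by a small step of -0.06. SFN, which holds mitotic cyclin and its kinase in the cytoplasm, and FBXW7, which hands cyclin E and MYC to the ubiquitin machinery, had overlapping groups and log2 fold changes of -0.12 and 0.04. SFN varied more between replicates than between groups, with 10.08 and 9.76 on the p53si-1 arrays and 10.17 and 9.90 on the NS arrays, replicate 1 being the higher in each.

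The 3 DNA repair genes had overlapping groups and none passed. XPC, which finds distorted DNA for nucleotide excision repair, had a log2 fold change of 0.15. DDB2, which binds ultraviolet lesions, was at 0.08, and POLH, a polymerase that copies past them, was at -0.16. The lowest adjusted p of the 3 was 0.60 (limma). In DDB2 the NS arrays alone, at 7.83 and 7.54, were further apart than the group means.

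All 6 measured genes of metabolism and redox had a lower mean with p53si-1, by small amounts, as had 9689 of all 18417 genes. None of the 6 passed an adjusted p of 0.05. Their log2 fold changes ran from -0.17 to -0.02, with a median of -0.08. The shared direction rests on single arrays for 4 of the 6, since leaving out 1 array put SESN1 at up to 0.08, SESN2 at up to 0.0332, FUCA1 at up to 0.0519 and TIGAR at up to 0.127. TIGAR, a phosphatase that lowers the flux through glycolysis, had the largest and the least certain value. Its signals were 5.96 and 6.54 on the p53si-1 arrays, against 6.37 and 6.46 on the NS arrays. The p53si-1 arrays lay on either side of the NS arrays, and their gap of 0.59 was the largest within a group for any of the 29 genes. Without p53si-1 replicate 1 the log2 fold change of TIGAR was 0.13, on the other side of 0, where that of all arrays was -0.17. TP53I3, a quinone oxidoreductase, and ABHD4, a lipid hydrolase, had separate groups at -0.09 and -0.08. The lysosomal fucosidase FUCA1 was at -0.08 with overlapping groups. The sestrins SESN1 and SESN2, which restrain the growth kinase mTORC1, were at -0.02 and -0.04, also with overlap, and their 95% intervals ran from -0.26 to 0.23 and from -0.26 to 0.18.

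Of 8 measured genes of apoptosis, survival and mitochondria, 4 had a higher and 4 a lower mean. TP53INP1, a stress protein that promotes cell death and autophagy, differed the most of all 29 genes. Its log2 signals were 7.45 and 7.46 on the p53si-1 arrays, against 6.95 and 7.03 on the NS arrays. The p53si-1 arrays nearly coincided and lay clear of both NS arrays. On the log2 scale TP53INP1 was higher by 0.46 (standard error 0.08, 95% interval 0.26 to 0.66), and limma gave an adjusted p of 0.11 and an unadjusted p of 0.0012. By size it stood at rank 404 of the 18417 genes. TP53INP1 passed in 1 of the alternatives tried, the one without genes of a mean signal under 6 (adjusted p = 0.0441 from limma), and over all of them the range of its adjusted p was 0.0441 to 0.39.

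PERP, a membrane protein of desmosomes that also takes part in cell death, was at 10.64 and 10.70 on the p53si-1 arrays, against 10.32 and 10.29 on the NS arrays. Both groups were tight and far apart for their spread, at a log2 difference of 0.36 (standard error 0.08, 95% interval 0.17 to 0.56), for which limma gave an adjusted p of 0.17. SPATA18, which acts in the quality control of mitochondria, was at 5.02 and 5.01 on the p53si-1 arrays, against 5.18 and 5.28 on the NS arrays. The groups were separate at a log2 fold change of -0.21, in the range of signals where no expression can be read. AEN, a nuclease that enhances apoptosis, was at 7.06 and 7.30 on the p53si-1 arrays, against 7.32 and 7.44 on the NS arrays. They were separated by a narrow gap, and the log2 fold change of -0.20 did not pass (adjusted p = 0.54 from limma).

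The other genes of this group had overlapping groups and log2 fold changes near 0. PHLDA3, which competes with AKT for its membrane lipid and so restrains it, was at 8.44 and 8.17 on the p53si-1 arrays, against 8.38 and 8.21 on the NS arrays. Its log2 fold change was 0.01, with a 95% interval of -0.29 to 0.30. TRIAP1, a mitochondrial protein that protects cells from death, was at 0.00 (95% interval -0.22 to 0.22). EDA2R, a receptor of the TNF receptor family, and CYFIP2, a component of the machinery that shapes actin, were at -0.02 and -0.08, both at dim signal.

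The 4 genes left are of other kinds. GDF15, a secreted cytokine that many stresses induce, had log2 signals of 6.07 and 6.16 on the p53si-1 arrays, against 5.93 and 5.87 on the NS arrays. The groups were separate, at a log2 difference of 0.21 (95% interval 0.01 to 0.42, adjusted p = 0.39 from limma). ZNF79, a zinc finger gene, was at 6.22 and 6.31 on the p53si-1 arrays, against 5.96 and 6.15 on the NS arrays, also separate, and higher by 0.21 on the log2 scale (limma, adjusted p = 0.47). RPS27L, a ribosomal protein with a close relative in RPS27, had overlapping groups at 0.05, and ZMAT3, an RNA-binding protein that acts in splicing, was at -0.01.

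**Figure D3:**
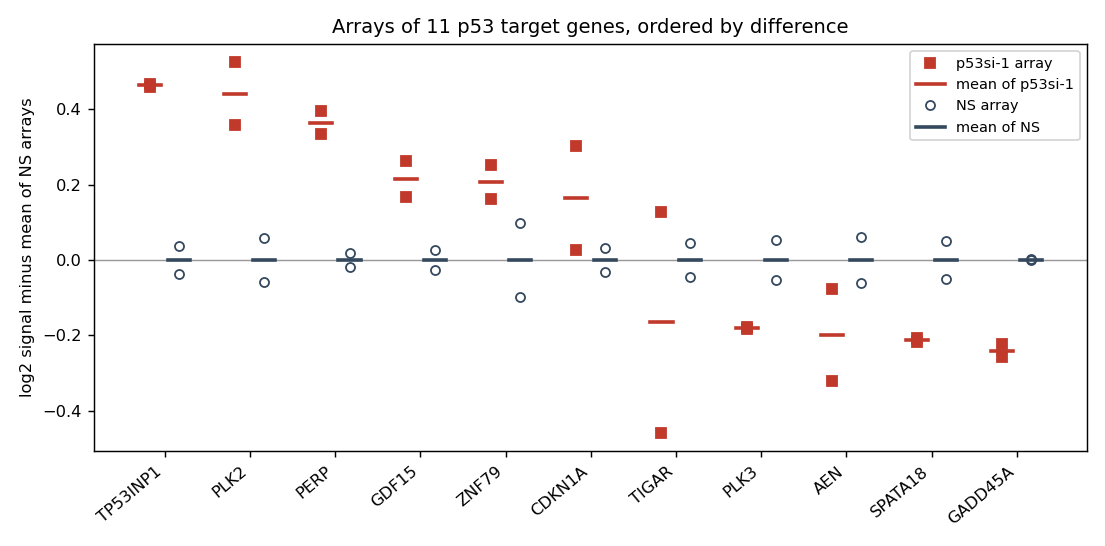
Log2 signals relative to the NS mean, 1 point per array, for the 10 p53 target genes with the largest difference and CDKN1A. Filled squares are p53si-1 arrays (left of each pair), open circles are NS arrays and bars are group means. For CDKN1A and TIGAR the groups overlap, and for the other 9 they do not.

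The spread between arrays of 1 group was of the size of most differences. In 18 of the 29 genes the larger gap between the arrays of 1 group exceeded the difference between the group means. This count was not made over all genes, so whether it is particular to the 29 is not known. The median gap between the p53si-1 arrays was 0.11 and that between the NS arrays was 0.10, like those over all genes at 0.11 and 0.10. The median size of the difference, without its sign, was 0.12 for the 29 genes and 0.09 for all genes. TP53INP1, PLK2 and PERP were the 3 genes of the 29 above the 95th percentile of all genes (0.25), and none lay below the 5th percentile (-0.29).

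Beside these genes stand 39 other direct p53 targets, among them the death receptor, BCL2 and MDM genes, of which 37 were measured. None passed an adjusted p of 0.05 in either direction (limma). At an unadjusted p under 0.05, 4 were higher (10.8%, against 5.45% of all genes) and 7 lower (18.9%, against 6.80% of all genes). Both p53si-1 arrays lay above both NS arrays in 9 (24.3%, against 19.9% of all genes) and below them in 12 (32.4%, against 22.6% of all genes). The list was chosen with earlier results of these data known, and its shares were not tested against all genes. Of the 37, 17 had a higher and 20 a lower mean (8727 and 9689 of all 18417 genes), with a median log2 fold change of -0.01. The largest differences were those of LIF (-0.92), RRM2B (-0.55), FAS (-0.47) and TRIM22 (0.45). LIF was the 1 gene of the 37 beyond 1.5-fold, where 0.652% of all genes were lower and 0.271% higher. The signals of LIF were 6.12 and 6.61 on the p53si-1 arrays, against 7.12 and 7.46 on the NS arrays (adjusted p = 0.15 from limma). RRM2B, a subunit of ribonucleotide reductase, was at 6.95 and 7.01 on the p53si-1 arrays, against 7.59 and 7.47 on the NS arrays (adjusted p = 0.0903 from limma), and passed without genes of a mean signal under 6 (adjusted p = 0.0382 from limma). The death receptor FAS was at 7.02 and 6.83 on the p53si-1 arrays, against 7.39 and 7.41 on the NS arrays (adjusted p = 0.15 from limma). MDM2, the ubiquitin ligase that p53 induces against itself, had overlapping groups and a log2 fold change of 0.12.

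The protein p21 is known to act through the DREAM complex, which represses genes of replication and mitosis, so these genes were read beside CDKN1A. Of 34 listed, 32 were measured and none passed an adjusted p of 0.05 (limma). Of the 32, 12 had a higher and 20 a lower mean (8727 and 9689 of all 18417 genes). At an unadjusted p under 0.05, 0 were higher (against 5.45% of all genes) and 7 lower (21.9%, against 6.80% of all genes). Their median log2 fold change was -0.03, and without p53si-1 replicate 1 it was 0.0118, on the other side of 0. In 14 of the 32 both p53si-1 arrays lay below both NS arrays (43.8%, against 22.6% of all genes), while in 2 both lay above (6.25%, against 19.9% of all genes). This list too was chosen with earlier results of these data known, and its shares were not tested against all genes. The largest differences were those of the mitotic kinesin KIF23 (-0.53), PLK4 (-0.36), cyclin A2 (CCNA2, -0.33) and MYBL2 (-0.26). KIF23 was at 9.87 and 9.92 on the p53si-1 arrays, against 10.40 and 10.46 on the NS arrays (adjusted p = 0.0903 from limma), and passed with a prior variance that follows the signal (adjusted p = 0.0233) and without genes of a mean signal under 6 (adjusted p = 0.0364).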

How the data were processed

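The table the authors deposited holds a log2 value for each transcript cluster on each array. GCOS, Affymetrix Expression Console and RMA are the tools in the submitters' processing notes. RMA makes the distributions of the arrays alike, so a shift of most transcripts would be removed, and it understates changes of dim probes. Neither its settings nor the genome build is given in the sources used here. The log2 scale is inferred from the values, which run from 1.75 to 14.3. Of 33297 clusters, 19460 name 1 gene symbol, 1754 several and 12083 none here. Where a gene had several clusters, the brightest by mean signal stood for it. The 29 genes have 1 cluster each.

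All 18417 genes entered 1 fit in limma 3.58.1 (R 4.3.3, functions lmFit and eBayes) with no dim filter, with 2 residual degrees of freedom and a prior of 4.20, and with Benjamini-Hochberg adjustment. Overlap and the 1.5-fold criterion carry no test. P-values measure the spread between 2 arrays a group, moderated by a prior variance estimated over all 18417 genes. The genes and lists were chosen with earlier results of these data known. All 29 genes are named. Values of each array are given for CDKN1A, the 10 largest differences, and separated genes of a log2 difference of 0.2 or more. Of each other list up to 4 genes with the largest difference are named. Other genes named, and other values by array, were picked after their values were seen. Alternatives changed the cluster rule, the dim filter, the normalization, the prior variance, the replicate block, the arrays and the fold criterion. The p53 transcript is not analysed here.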

Additional observations from a re-analysis of the deposited data

How the results depend on the processing

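The counts of the 29 genes at an adjusted p under 0.05 and beyond 1.5-fold were 0 in both directions under the alternatives tried, except that leaving out genes of a mean signal under 6 gave 1 higher at an adjusted p under 0.05 (TP53INP1) and that a 1.2-fold criterion gave 3 higher (TP53INP1, PLK2 and PERP). Without 1 array, where separation is easier to reach, separated genes numbered 7 to 11 higher and 9 to 12 lower. Shares over all genes were not counted for separation without 1 array or at 1.2-fold, so neither count can be set beside all genes. The median log2 fold change of the 29 genes ran from -0.0666 without NS replicate 2 to 0.0355 without NS replicate 1. The sign held under every alternative for 16 of the 29 genes. With all arrays kept, TRIAP1 was at -0.0058 after quantile renormalization and ZMAT3 at 0.0063 after median centring, both on the other side of 0. Leaving out 1 array turned the sign of 13 genes, whose log2 fold changes then ran from -0.279 to 0.0464 for SFN, -0.0219 to 0.103 for FBXW7, -0.0666 to 0.224 for DDB2, -0.114 to 0.08 for SESN1, -0.111 to 0.0332 for SESN2, -0.458 to 0.127 for TIGAR, -0.222 to 0.0519 for FUCA1, -0.078 to 0.0791 for TRIAP1, -0.129 to 0.144 for PHLDA3, -0.121 to 0.0749 for EDA2R, -0.223 to 0.0575 for CYFIP2, -0.0993 to 0.0879 for ZMAT3 and -0.105 to 0.21 for RPS27L. Over all genes, 6 were higher and 14 lower at an adjusted p under 0.05, against 53 and 139 without dim genes, 38 and 111 with a prior variance that follows the signal, 12 and 50 after centring, 7 and 21 with averaged clusters and also after quantile renormalization, 2 and 2 over every cluster, and 0 or 1 without 1 array. The replicate number is not known to mark a shared culture. Same-numbered arrays deviated together across genes (correlation 0.24, and 0.53 over the 29 genes), and with the number as a replicate block 0 of the 29 genes passed in either direction, while over all genes 5 were higher and 7 lower. The alternatives for the other lists and the counts at an unadjusted p were chosen after seeing the data. The 2 arrays a group limit the precision.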
